A study of Mus musculus with 8 samples.

Results

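The genes described here are 47 members of glycolysis, lactate handling and the hypoxia response, out of 55359 features in the gene count table. They were chosen by name, not by their values, and cover glucose uptake, the enzymes from hexokinase to pyruvate kinase, lactate dehydrogenase and lactate carriers, the pyruvate dehydrogenase gate, the hypoxia-inducible factors (HIF) with their oxygen sensors, and 10 hypoxia-inducible targets. All 47 were found in the table by Ensembl identifier, with Ero1l being the older symbol of Ero1a. MLO-Y4 is an osteocyte-like cell line derived from mouse bone, here labelled wild type, and all libraries come from this line. Cells were plated on 35 mm dishes coated with rat collagen I 72 h ahead of treatment, and 4 libraries came from non-irradiated cells (C5, C6, C7 and C8) and 4 from cells irradiated with a pulsed Er:YAG laser (L5, L6, L7 and L8). The laser, which emits infrared light at 2940 nm that water absorbs strongly, was applied for 1 min at 6.0 J/cm2 from 25 cm after the medium had been taken off. RNA was collected 6 h later and enriched for poly(A) transcripts. Whether the medium was also taken off the non-irradiated dishes is not stated in the sources used here.

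Glycolysis splits glucose into pyruvate in the cytosol, and lactate dehydrogenase turns pyruvate into lactate, which leaves the cell through monocarboxylate carriers. Pyruvate dehydrogenase instead feeds pyruvate into the mitochondria and is shut by the pyruvate dehydrogenase kinases. HIF is a pair of proteins, an alpha subunit such as Hif1a and the constant partner Arnt. With oxygen present, prolyl hydroxylases (Egln genes) mark the alpha subunit, Vhl carries it to degradation, and the asparaginyl hydroxylase Hif1an blunts its activity. When oxygen is low the alpha subunit escapes, binds the short DNA core RCGTG and raises transcription of many glycolytic genes. This control acts mainly on the protein, which was not measured here. Osteocytes lie in mineralised bone, where oxygen is thought to be low.

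Library totals ran from 43786209 to 51734166 estimated counts, and between 19034 and 19508 features had a count in a library. Levels are CPM, counts per 1000000 library counts, after TMM scaling, a correction for library composition whose factors lay between 0.989 and 1.01. Among osteocyte markers, Pdpn and Gja1 were present, while the late markers Sost, Mepe, Fgf23 and Dkk1 were at 0 in all 8 libraries. The summed level of 8 osteocyte markers was 738 to 764 CPM without and 927 to 960.2 CPM with irradiation, and that of 5 macrophage markers was 17.2 to 20.9 and 28.1 to 31.3 CPM. The macrophage sum rested on Csf1r and Cd68, since Ptprc, Adgre1 and Itgam were at 0 in all libraries. Csf1r and Cd68 moved in opposite directions, and the higher sum came from Csf1r. Mean Csf1r was 14.2 CPM without and 26.2 CPM with irradiation, while mean Cd68 was 4.44 and 3.51 CPM. The groups overlapped in neither gene. In the edgeR test described below, Csf1r passed (adjusted p = 1.06e-07) and Cd68 did not (adjusted p = 0.193). The summed level of 6 osteoblast markers, mostly Col1a1, was 1148 to 1280 CPM without and 1230 to 1327 CPM with irradiation. Muscle markers summed to 2.71 to 4.73 and 2.17 to 3.99 CPM. Endothelial, epithelial, adipocyte and erythroid marker lists each summed to under 1 CPM in all libraries. In bulk RNA a change in RNA per cell and a change in the share of cells that hold the RNA cannot be told apart. The labels do not say that libraries of a group came from separate cultures, so p-values measure the spread between these libraries, which may be technical.

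Irradiated cells held more RNA of the glucose transporter Slc2a1, of Hk2, Slc16a1 and of Hif1a itself, by 1.18 to 1.30 times. They held less RNA of Bnip3, Bnip3l, Ndrg1 and Kdm3a and of the kinase Pdk4, by 1.16 to 1.46 times. The 10 listed hypoxia-inducible targets were split. Bnip3, Bnip3l, Ndrg1 and Kdm3a were lower, Ero1l was higher (1.10 times) and 5 did not pass. Of the most abundant enzymes of the pathway, Pkm, Eno1, Ldha, Aldoa and Pgk1 did not pass the test, while Tpi1 was lower (1.08 times). Of the 47 genes, 44 passed the filter on low counts, and 15 of them passed an adjusted p of 0.05 in edgeR's quasi-likelihood test with Benjamini-Hochberg adjustment over 15164 features. These were 7 higher and 8 lower, or 34.1% of the 44, where 15% of all tested features passed (8.22% higher and 6.75% lower). Over all features that was 1247 higher and 1023 lower, and with library totals alone in place of TMM 1050 and 1345. Passing was more frequent among abundant features. With a mean of at least 10 CPM, 14 of 38 genes of this group passed (36.8%), beside 21.6% of all such features. The changes were small, between 1.08 and 1.46 times with a median of 1.23 times among the 15, and none of the 44 reached a fitted change of 1.5 times. The median log2 ratio of irradiated to non-irradiated levels was -0.0145 for the 44 and -0.00654 for all tested features. In 12 of the 15 called genes the 2 groups of libraries did not overlap, beside 1969 of the 2270 called among all features. Pdha1 was the uncalled gene without overlap, giving 13 of 44 where 18.5% of all tested features did not overlap. The calls of Slc2a1, Hk2, Slc16a1, Hif1a, Bnip3, Bnip3l, Ndrg1 and Kdm3a, 8 of the 15, held in all 19 alternative settings. Pfkl, Pfkp, Tpi1, Pfkfb4, Pdk4 and Ero1l lost theirs when L5 and L7, the libraries farthest apart on the second principal component, were both left out, which left 4 higher and 5 lower.

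**Figure D1:**
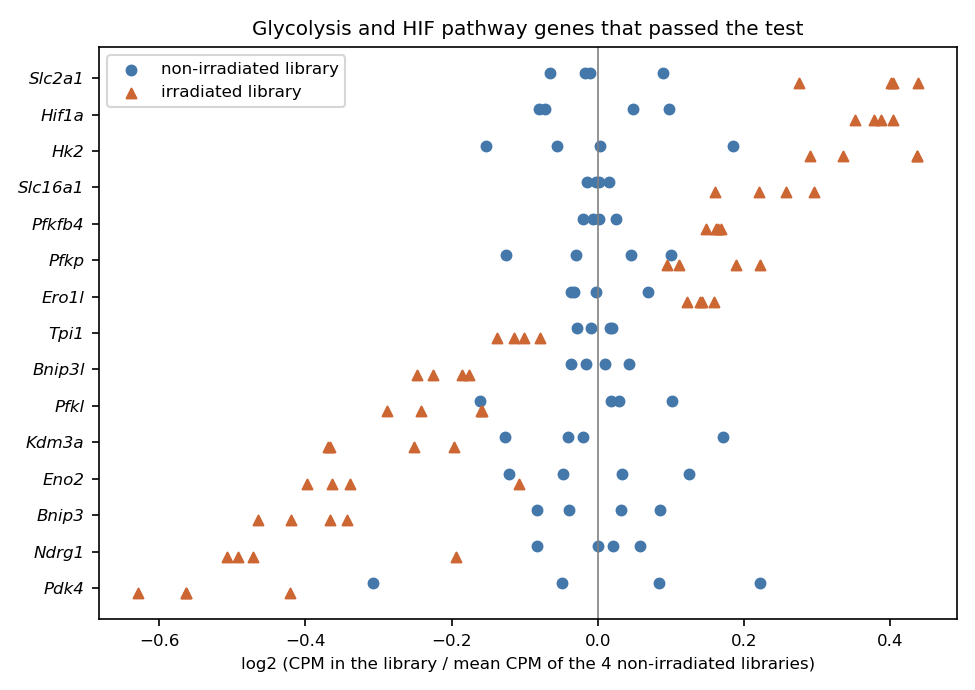
Level in each library of the 15 called genes, as the log2 of CPM divided by the gene's mean over the non-irradiated libraries, with blue circles for non-irradiated and orange triangles for irradiated libraries (4 each). Hif1a, Slc2a1 and Hk2 lie highest, Pdk4 lies lowest, and the 2 groups overlap in Pfkl, Pfkp and Eno2.

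**Figure D2:**
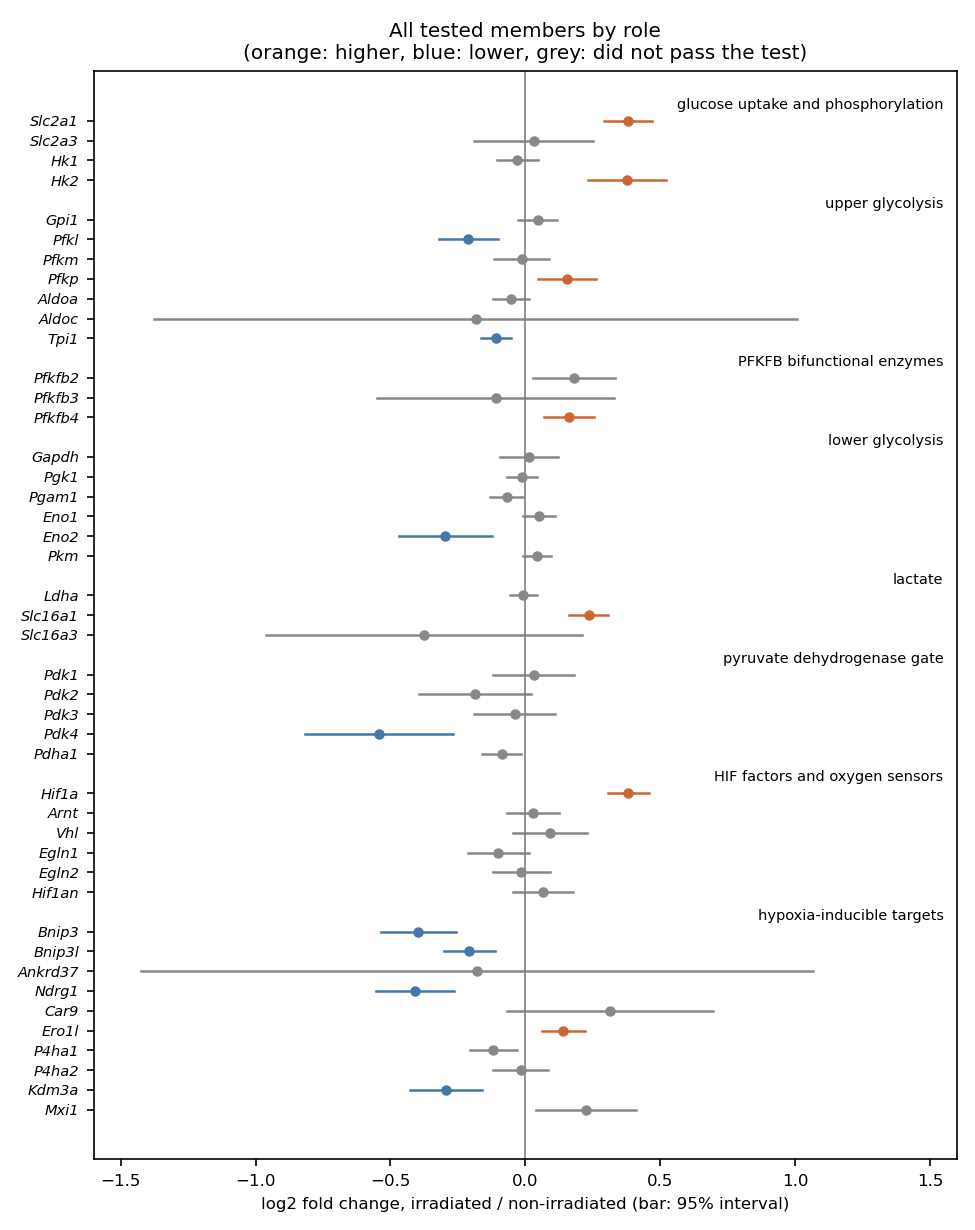
Log2 ratio of irradiated to non-irradiated levels for the 44 tested genes, by role, with 95% intervals from the edgeR fit. Orange marks higher, blue lower and grey genes that did not pass, and the widest intervals belong to Ankrd37 and Aldoc, which are both under 1 CPM.

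The promoters of some of these genes are shown because they carry the letters HIF is known to bind. RefSeq promoter sequences (GRCm38.p6) matched 43 of the 47 genes by symbol, not Slc2a3, Epas1, Bnip3l or Ndrg1, and gave 64 promoters. The 250 bases before the start were searched for ACGTG and GCGTG, the forms of the HIF core, on both strands. The E-box CACGTG holds ACGTG on both strands and is then counted on each. Neighbouring matches can also share bases, so matches may overlap. At least 1 match was present in 50 of 64 promoters (78.1%), against 12679 of 32851 promoters in the whole table (38.6%). Among all promoters whose GC content lay in the interquartile range of the 64, 55.0% to 67.6%, the share was 54.5%. The 78.1% covers all 64, also those outside that range, so these 2 shares are not matched for GC content. All 7 promoters of the 7 higher genes held a match, as did 4 of 8 promoters of the lower genes, which belong to 6 genes of which 4 held a match, and the promoters' median GC content was 66.4% and 59.0%. A match is a string of letters, not a site shown to be bound. Below, matched letters are in capitals, read on the strand of the gene. The 4 higher genes come first, then the 2 lower genes Bnip3 and Pdk4, then Pgk1, a textbook HIF target that did not pass the test. They lie at chr4:119108495-119108744 for Slc2a1, chr6:82774455-82774704 for Hk2, chr3:104638414-104638663 for Slc16a1, chr12:73907617-73907866 for Hif1a, chr7:138909507-138909756 for Bnip3, chr6:5496279-5496528 for Pdk4 and chrX:106186850-106187099 for Pgk1, on the minus strand for Hk2, Bnip3 and Pdk4 and on the plus strand for the others.
Slc2a1: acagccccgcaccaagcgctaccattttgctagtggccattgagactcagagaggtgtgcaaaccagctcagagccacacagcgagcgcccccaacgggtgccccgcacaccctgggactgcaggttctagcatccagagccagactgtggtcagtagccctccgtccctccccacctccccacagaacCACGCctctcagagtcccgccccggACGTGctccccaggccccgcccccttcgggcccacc
Hk2: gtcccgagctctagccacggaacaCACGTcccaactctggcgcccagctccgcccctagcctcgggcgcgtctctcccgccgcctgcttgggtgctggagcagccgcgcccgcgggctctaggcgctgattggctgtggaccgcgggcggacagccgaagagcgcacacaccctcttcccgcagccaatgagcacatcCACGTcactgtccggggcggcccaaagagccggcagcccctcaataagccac
Slc16a1: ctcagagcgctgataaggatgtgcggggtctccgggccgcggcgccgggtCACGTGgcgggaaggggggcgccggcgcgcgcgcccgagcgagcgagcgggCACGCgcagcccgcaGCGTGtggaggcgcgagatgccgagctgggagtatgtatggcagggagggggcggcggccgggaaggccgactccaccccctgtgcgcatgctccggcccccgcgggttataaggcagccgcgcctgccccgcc
Hif1a: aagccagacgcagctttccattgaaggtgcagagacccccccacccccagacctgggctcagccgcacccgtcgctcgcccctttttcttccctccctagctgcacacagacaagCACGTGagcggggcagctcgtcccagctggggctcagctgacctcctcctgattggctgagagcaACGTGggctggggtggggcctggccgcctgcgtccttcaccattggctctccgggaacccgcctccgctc
Bnip3: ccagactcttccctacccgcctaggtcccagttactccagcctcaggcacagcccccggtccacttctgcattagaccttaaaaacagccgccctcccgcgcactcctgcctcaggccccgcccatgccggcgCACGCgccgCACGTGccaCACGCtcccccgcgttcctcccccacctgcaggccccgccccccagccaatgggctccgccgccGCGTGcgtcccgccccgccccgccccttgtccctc
Pdk4: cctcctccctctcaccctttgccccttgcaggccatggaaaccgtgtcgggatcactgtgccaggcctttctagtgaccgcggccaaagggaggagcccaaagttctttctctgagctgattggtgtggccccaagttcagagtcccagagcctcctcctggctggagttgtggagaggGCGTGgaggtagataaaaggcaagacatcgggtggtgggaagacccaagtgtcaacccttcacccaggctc
Pgk1: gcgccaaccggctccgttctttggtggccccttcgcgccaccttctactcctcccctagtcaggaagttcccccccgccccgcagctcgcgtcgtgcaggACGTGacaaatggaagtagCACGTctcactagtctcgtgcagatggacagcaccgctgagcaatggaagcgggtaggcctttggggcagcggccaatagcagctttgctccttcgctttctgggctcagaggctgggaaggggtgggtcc
Counting both strands, Bnip3 had 5 matches and Slc16a1 had 4, more than the 2 of Slc2a1 or the 1 of Pdk4. Among the genes shown, which are a selection, the number of matches did not separate higher from lower. The lower genes Tpi1 and Eno2, not shown, had no match.

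Glucose uptake and phosphorylation held 4 genes, of which 2 were higher and none lower. Slc2a1 (ENSMUSG00000028645.12), which encodes the widespread glucose transporter GLUT1, stood at 105, 113, 101 and 105 CPM in C5 to C8 and at 140.2, 128, 139.9 and 144 CPM in L5 to L8. All irradiated libraries lay above all non-irradiated ones, with L6 the lowest of them. The log2 ratio was 0.38 (SE 0.0430, adjusted p = 3.23e-06), a change of 1.30 times. Hk2, the inducible hexokinase that traps glucose in the cell as glucose 6-phosphate, stood at 30.9, 35.1, 29.7 and 27.7 CPM and at 41.8, 37.7, 41.7 and 38.9 CPM in the same order. Again the groups did not overlap, and the log2 ratio was 0.38 (SE 0.0694, adjusted p = 0.000739). Its constitutive relative Hk1 was at 127 ± 3.77 and 125 ± 2.58 CPM (SD, n = 4) and did not pass (adjusted p = 0.676). Per kilobase of transcript, Hk1 was the more abundant hexokinase in all libraries, and the share of Hk2 in the sum of both was 14.5% ± 1.03 without and 18.3% ± 0.789 with irradiation (SD, n = 4). The second transporter, Slc2a3, was lower in level, at 11.3 ± 1.03 and 11.6 ± 1.321 CPM, and did not pass (adjusted p = 0.893). The share of Slc2a1 in the transporter pair, per kilobase, was 91.9% ± 0.443 and 93.5% ± 0.601.

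Upper glycolysis, from glucose 6-phosphate to the triose phosphates, held 7 genes, with 1 higher and 2 lower. The 3 subunits of phosphofructokinase, the committing enzyme of the pathway, did not move together, with Pfkl lower, Pfkp higher and Pfkm not passing. Pfkl, the liver-type subunit, stood at 90.6, 95.3, 79.5 and 89.9 CPM in the non-irradiated and 72.7, 79.6, 79.5 and 75.1 CPM in the irradiated libraries. C7 lay just below L6 and L7, so the groups overlapped, and the log2 ratio was -0.21 (SE 0.0526, adjusted p = 0.00902). Pfkp, the platelet-type subunit, stood at 69.3, 75.8, 73.0 and 64.8 CPM without and 75.6, 76.4, 82.5 and 80.6 CPM with irradiation. C6 lay above L5, and the log2 ratio of 0.16 was close to the threshold (SE 0.0514, adjusted p = 0.0477). The Pfkp call was lost in 10 of 19 alternatives, among them leaving out C5, C7, C8, L5, L7 or L8, where its adjusted p reached 0.164. The muscle-type subunit Pfkm did not pass, at 62.4 ± 3.30 and 61.8 ± 1.64 CPM. Per kilobase, Pfkl made up 38.0% ± 2.12 of the 3 subunits without and 33.7% ± 0.744 with irradiation, and Pfkp 27.3% ± 1.78 and 31.1% ± 0.985. Triose phosphate isomerase, Tpi1, stood at 797, 799, 773 and 783 CPM without irradiation. With irradiation it was at 735, 746, 716 and 728 CPM. The groups did not overlap and the log2 ratio was -0.11 (SE 0.0261, adjusted p = 0.00738), the smallest change among the 15 called genes. Glucose phosphate isomerase Gpi1 (413 ± 19.0 and 427 ± 13.6 CPM, adjusted p = 0.438) and the aldolase Aldoa (878 ± 38.0 and 845 ± 22.8 CPM, adjusted p = 0.287) did not pass. The brain-type aldolase Aldoc was close to 0, at 0.528 ± 0.371 and 0.462 ± 0.219 CPM (adjusted p = 0.884).

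The PFKFB enzymes make and break fructose 2,6-bisphosphate, the strongest activator of phosphofructokinase, and 1 of 3 was higher. Pfkfb4 stood at 57.5, 56.2, 55.7 and 56.5 CPM in the non-irradiated and 63.5, 63.2, 63.3 and 62.6 CPM in the irradiated libraries. The groups did not overlap and each was tight, with a log2 ratio of 0.16 (SE 0.0440, adjusted p = 0.0169). Pfkfb2 was at 21.04 ± 1.64 and 23.9 ± 1.08 CPM (log2 ratio 0.18, adjusted p = 0.108). Without C6 its adjusted p was 0.0339. Pfkfb3, often described as a hypoxia-inducible member of the family, was low at 3.70 ± 1.149 and 3.43 ± 0.376 CPM (adjusted p = 0.804). Pfkfb4 made up 68.9% ± 0.581 and 68.6% ± 1.48 of the 4 family members per kilobase, with Pfkfb1 counted in.

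Lower glycolysis, from glyceraldehyde phosphate to pyruvate, held 6 genes, none higher and 1 lower. Eno2, the neuron-type enolase and a hypoxia-inducible gene, stood at 22.6, 24.0, 21.3 and 20.3 CPM in C5 to C8. In L5 to L8 it was at 20.5, 17.1, 16.7 and 17.4 CPM, so that L5 lay just above C8 while the other 3 irradiated libraries lay below all controls. Its log2 ratio was -0.30 (SE 0.0825, adjusted p = 0.0185), and the call was lost without C5, L6, L7 or L8, where the adjusted p was at most 0.0728. The major enolase Eno1 was at 1523 ± 47.05 and 1577 ± 47.6 CPM and did not pass (adjusted p = 0.278). Of the 3 enolases, with Eno3 described below, Eno1 made up 73.6% ± 0.645 and 71.2% ± 0.450 per kilobase, Eno3 25.7% ± 0.599 and 28.2% ± 0.422, and Eno2 0.773% ± 0.0742 and 0.588% ± 0.0629. Pkm, pyruvate kinase and the most abundant of the 47 genes where Gapdh is counted without its copies, was at 3266 ± 74.7 and 3365 ± 61.3 CPM, with a ratio of 1.03 and a 95% interval of 0.995 to 1.07 (adjusted p = 0.268). Phosphoglycerate kinase Pgk1 had a ratio of 0.992 (95% interval 0.955 to 1.03) and the mutase Pgam1 a ratio of 0.953 (95% interval 0.913 to 0.995, adjusted p = 0.13).

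Gapdh, the dehydrogenase of the pathway and a widely used reference gene, needs a separate description. At the gene itself the table gave 88.9, 80.1, 73.2 and 80.2 CPM in C5 to C8 and 82.6, 82.1, 78.2 and 82.6 CPM in L5 to L8, well below neighbours such as Pgk1. The genome holds many processed copies of Gapdh, and 93 features of the table matched its transcript at 95% identity or more over at least 200 bases without sharing an exon. The gene and these copies together summed to 3549 ± 82.1 CPM without and 3533 ± 73.9 CPM with irradiation (SD, n = 4), and the gene held 2.05% to 2.52% of that sum. Reads of Gapdh and of its copies cannot be told apart in these counts. No change was called at the gene (ratio 1.01, 95% interval 0.937 to 1.09, adjusted p = 0.902), in the sum of gene and copies (log2 ratio -0.01, adjusted p = 0.907) or in any of the 44 copies that could be tested. Copies of other genes took smaller shares, at most 9.06% of the member's own counts for Eno1 and 8.203% for Bnip3l, and adding them to their members left 7 higher and 8 lower.

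**Figure D3:**
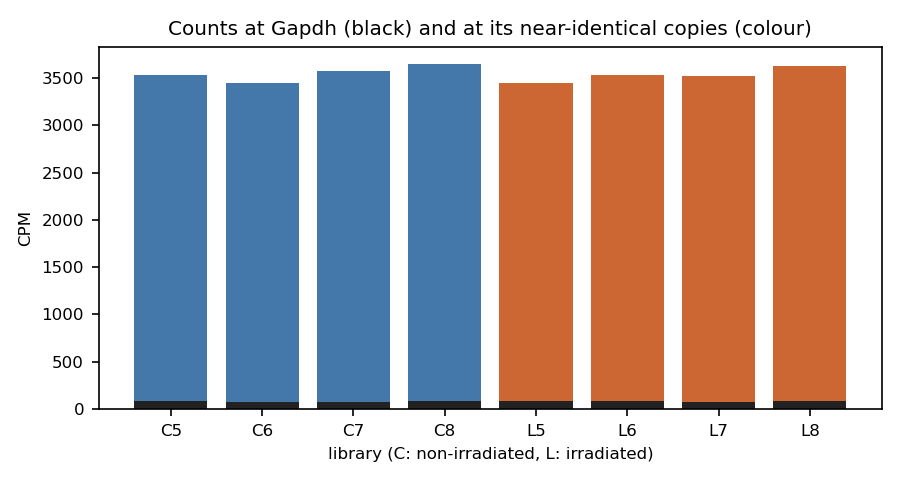
CPM at Gapdh alone and at Gapdh with its 93 near-identical copies, by library. The gene lies between 73.2 and 88.9 CPM and the sum between 3448 and 3644 CPM, with the 2 groups overlapping in both.

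Lactate handling held 4 genes, of which 3 could be tested, with 1 higher. Slc16a1, the lactate and pyruvate carrier MCT1, stood at 161, 163, 161 and 159 CPM in the non-irradiated libraries, within a narrow band. In the irradiated libraries it stood at 179.9, 188, 192 and 198 CPM, all above that band. The log2 ratio was 0.23 (SE 0.0349, adjusted p = 7.96e-05). Slc16a3, the MCT4 carrier known as a HIF target in many cells, was at 1.546 ± 0.231 and 1.19 ± 0.260 CPM (adjusted p = 0.43), and Slc16a1 made up 99.0% ± 0.149 and 99.4% ± 0.158 of the pair per kilobase. Ldha, the lactate dehydrogenase subunit that favours lactate and a textbook HIF target, was at 1246 ± 11.2 and 1239 ± 5.94 CPM. Its ratio was 0.995 with a 95% interval of 0.961 to 1.03 (adjusted p = 0.883). Ldhb, the other subunit, was below the filter with 19 counts over the 4 non-irradiated and 27 over the 4 irradiated libraries.

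At the pyruvate dehydrogenase gate 1 of 5 genes was lower. Pdk4, a kinase that shuts pyruvate dehydrogenase and rises with fasting in many tissues, stood at 8.41, 7.04, 10.2 and 9.22 CPM in C5 to C8 and at 5.89, 5.89, 5.63 and 6.503 CPM in L5 to L8. The groups did not overlap, and the log2 ratio of -0.54 was the largest in size among the called genes (SE 0.131, adjusted p = 0.00755). Pdk1, a textbook HIF target, was at 22.9 ± 1.85 and 23.3 ± 0.666 CPM (adjusted p = 0.845), and Pdk2 (adjusted p = 0.234) and Pdk3 (adjusted p = 0.789) did not pass either. Pdk3 made up 60.6% ± 2.71 and 62.7% ± 1.91 of the 4 kinases per kilobase, and Pdk4 7.96% ± 1.04 and 5.82% ± 0.350. Pdha1, the catalytic subunit that these kinases phosphorylate, stood at 167, 166, 159 and 158 CPM without and 151, 155, 152 and 153 CPM with irradiation. Its groups did not overlap but its adjusted p was 0.0895 (log2 ratio -0.09).

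Among the HIF factors and oxygen sensors 1 of 6 tested genes was higher. Hif1a (ENSMUSG00000021109.14) stood at 453, 468, 416 and 414 CPM in C5 to C8 and at 569, 559, 579.5 and 573 CPM in L5 to L8. The irradiated libraries lay together above all controls, and the controls split into C5 and C6 above C7 and C8. The log2 ratio was 0.38 (SE 0.0363, adjusted p = 3.83e-07), or 1.30 times with a 95% interval of 1.24 to 1.37. Arnt, its partner, was at 113 ± 6.73 and 115 ± 5.25 CPM (adjusted p = 0.776). None of the genes that restrain HIF passed: Vhl had an adjusted p of 0.405, Egln1 of 0.241, Egln2 of 0.894 and Hif1an of 0.486. Egln1, the main hydroxylase in most cells, had a ratio of 0.933 (95% interval 0.863 to 1.01), and Egln2 held 71.7% ± 1.21 and 72.9% ± 1.07 of their sum per kilobase. The second alpha subunit, Epas1, had 26 counts over the non-irradiated and 32 over the irradiated libraries and was below the filter. Egln3, a hydroxylase known for strong induction by hypoxia, had no count in any library, which allows at most 0.0685 CPM in the smallest library for 3 counts, by counting error only. In the whole table the value 4 occurred 6096 times, against 4006 times for 3 and 2428 times for 5, so 1 fragment may add more than 1 count, in which case the limit is higher.

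The 10 hypoxia-inducible targets were split, with 1 higher, 4 lower and 5 that did not pass. Bnip3, which marks mitochondria for autophagy, stood at 30.0, 27.6, 26.7 and 29.0 CPM in the non-irradiated and 22.3, 21.98, 21.2 and 20.5 CPM in the irradiated libraries. The groups did not overlap, with a log2 ratio of -0.40 (SE 0.0664, adjusted p = 0.000274). Bnip3l, its close relative in the same process, stood at 68.8, 66.1, 67.3 and 65.2 CPM without and 57.2, 58.8, 59.2 and 56.3 CPM with irradiation. It too had no overlap (log2 ratio -0.21, SE 0.0451, adjusted p = 0.003). Ndrg1, a stress-responsive gene used as a hypoxia marker, stood at 40.8, 43.3, 43.9 and 45.1 CPM and, after irradiation, at 31.2, 37.9, 30.4 and 30.8 CPM. L6 lay apart from the other 3 irradiated libraries and nearer to the controls, but below all of them (log2 ratio -0.41, SE 0.0688, adjusted p = 0.000288). Kdm3a, a histone H3K9 demethylase and HIF target, stood at 51.1, 58.4, 50.4 and 47.5 CPM without and 45.2, 40.1, 43.5 and 40.2 CPM with irradiation. Its groups did not overlap (log2 ratio -0.29, SE 0.0640, adjusted p = 0.00317).

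The higher target was Ero1l, the oxidase that drives disulfide formation in the endoplasmic reticulum. It stood at 95.2, 102, 97.6 and 95.5 CPM without and 106, 108, 109 and 108 CPM with irradiation. The irradiated libraries were closely grouped above the controls, of which C6 was the highest (log2 ratio 0.14, SE 0.0384, adjusted p = 0.0163), and without C5 the adjusted p was 0.0542. Of the collagen prolyl hydroxylase subunits, P4ha1 was at 136 ± 6.95 and 126 ± 5.04 CPM (log2 ratio -0.12, adjusted p = 0.064) and P4ha2 at 81.3 ± 3.46 and 80.4 ± 4.98 CPM (adjusted p = 0.871). Mxi1, an antagonist of Myc, was at 16.6 ± 1.317 and 19.4 ± 1.87 CPM (log2 ratio 0.22, adjusted p = 0.0979), and without L6 its adjusted p was 0.0266. Car9, the carbonic anhydrase widely used as a hypoxia marker, was low at 3.15 ± 0.562 and 3.91 ± 0.391 CPM (adjusted p = 0.283). Ankrd37, another marker of HIF activity, was lower still at 0.262 ± 0.0920 and 0.232 ± 0.101 CPM (adjusted p = 0.891).

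Summed over its enzymes, the RNA of the pathway overlapped between the groups. The 17 enzyme genes from hexokinase to lactate dehydrogenase that were summed per library, without transporters and regulators and with Gapdh at the gene alone, gave 9518 to 9845 CPM in the non-irradiated and 9537 to 9821 CPM in the irradiated libraries, or 0.952% to 0.985% and 0.954% to 0.982% of the counts. Among the uncalled genes, 11 had a mean over 100 CPM, and their 95% intervals for the ratio lay between 0.867 and 1.09. Per kilobase, and with Gapdh at the gene alone, the order of levels was Pkm (1343 ± 30.7 CPM per kilobase without irradiation), Eno1 (751 ± 23.2), Ldha (705 ± 6.36), Aldoa (581 ± 25.1), Tpi1 (490.3 ± 7.66) and Pgk1 (356 ± 5.11), in which each mean lay more than the sum of the SDs from its neighbour (n = 4). Hif1a, at 92.7 ± 5.70 CPM per kilobase, lay above its partner Arnt at 41.8 ± 2.49 and above Egln2 at 36.7 ± 2.57. Arnt, Egln2 and P4ha2 (36.5 ± 1.552) followed each other, and the neighbours Egln2 and P4ha2 did not differ beyond their spread. The spread within groups was small. The median coefficient of variation was 6.06% and 3.94% over the 44 genes without and with irradiation, beside 7.81% and 7.26% over all tested features. With a non-irradiated mean of at least 100 CPM it was 3.02% and 2.07% over 15 genes, beside 3.53% and 3.05% over all such features.

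**Figure D4:**
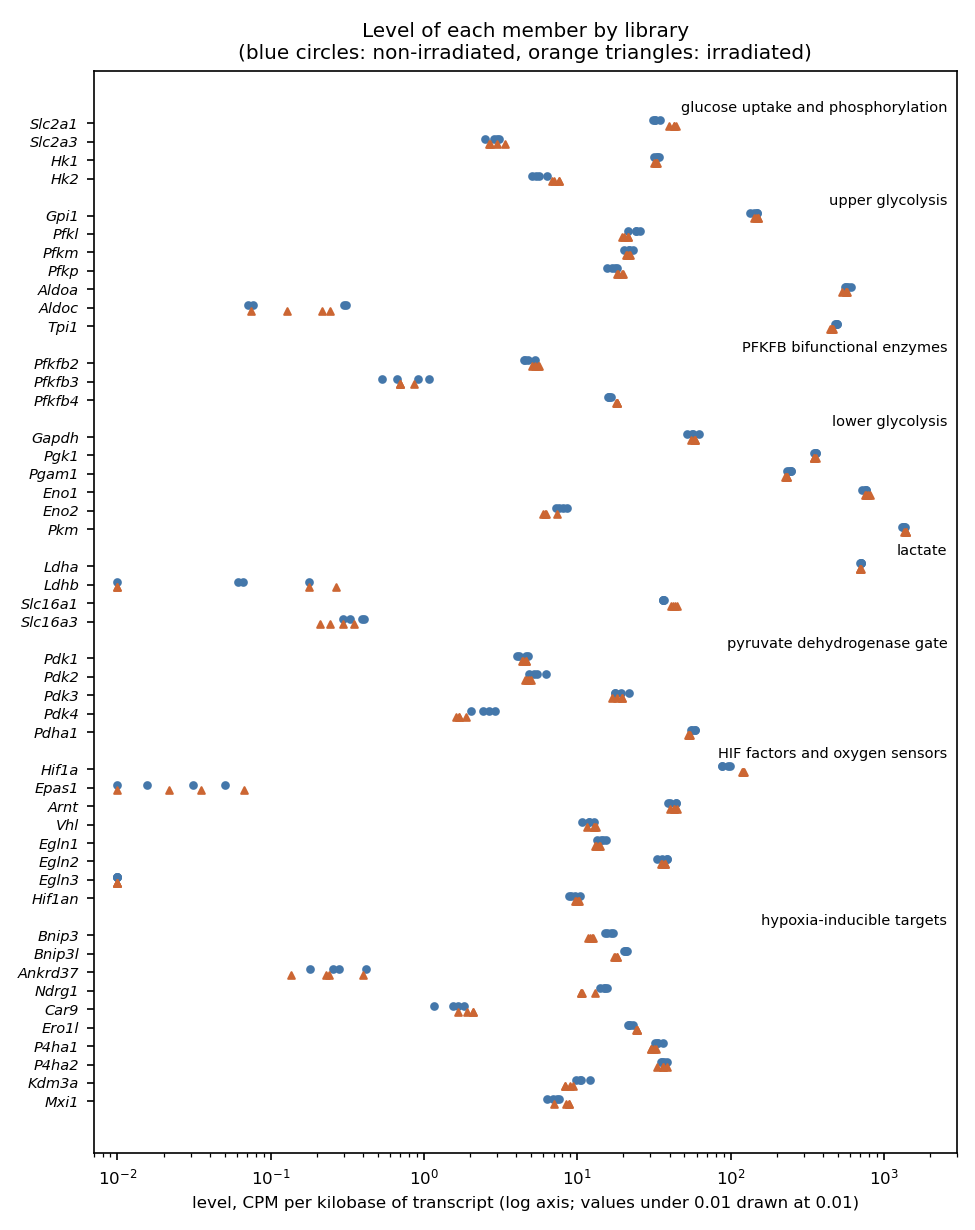
Level of each of the 47 genes in each library, as CPM per kilobase of transcript on a log axis, by role, with blue circles for non-irradiated and orange triangles for irradiated libraries. Levels run from 0 for Egln3 to over 1000 CPM per kilobase for Pkm, and the shifts between groups are small beside the differences between genes.

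Genes of the same pathways outside the 47 were counted in the same fit. There 15% of all tested features passed, and 21.6% of those with a mean of at least 10 CPM. Of tested genes, 37.5% of other HIF targets, 62.5% of pentose phosphate, 38.5% of glycogen and 50% of glucose-sensing MondoA genes passed. For other HIF regulators (7.69%), further glycolytic isoforms (7.14%) and the tricarboxylic acid list (10.3%) the share was under that of all features. Of 39 other HIF targets 32 could be tested, and 6 were higher and 6 lower, with a median log2 ratio of 0.03. Among those with the largest changes were Narf (11.3 ± 1.94 to 6.26 ± 0.955 CPM, log2 ratio -0.85, adjusted p = 0.000224) and the haem oxygenase Hmox1 (125 ± 2.16 to 81.5 ± 5.83 CPM, log2 ratio -0.62, adjusted p = 1.39e-08). Vegfa, the best known HIF target and chosen here after its values were seen, was higher at 205 ± 6.78 against 150.1 ± 10.9 CPM (log2 ratio 0.45, adjusted p = 7.83e-07). Like the 10 targets above, these genes therefore moved in both directions. Of 14 other HIF regulators 13 could be tested and 1 passed, the scaffold Rack1, at the threshold and with overlapping groups (log2 ratio -0.09, adjusted p = 0.0484).

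Of 26 further glycolytic isoforms and branch enzymes 14 could be tested, and Eno3, the muscle-type enolase, was the 1 that passed. It was higher after irradiation, at 482 ± 4.83 against 409.7 ± 11.3 CPM (log2 ratio 0.23, adjusted p = 9.04e-06), opposite in sign to Eno2. The pentose phosphate pathway, which branches off at glucose 6-phosphate and yields NADPH and ribose, had 5 of 8 genes lower and none higher, with a median log2 ratio of -0.14. The 3 largest were Tkt (349.6 ± 15.8 to 297 ± 9.35 CPM, log2 ratio -0.24, adjusted p = 8.65e-05), Rpia (log2 ratio -0.21, adjusted p = 0.023) and G6pdx, the entry enzyme (log2 ratio -0.15, adjusted p = 0.00557). Leaving out single libraries left between 2 and 6 of them lower, with 2 without C7 and 3 without L7, and leaving out both L5 and L7 left 1. Of 13 glycogen genes 4 were lower, among them Gyg (log2 ratio -0.19, adjusted p = 0.0297) and Phkb (log2 ratio -0.19, adjusted p = 0.037), and 1 was higher, Ugp2, which makes the UDP-glucose that glycogen is built from (log2 ratio 0.16, adjusted p = 0.00355). The 4 lower calls were fragile: without C5 or L8 none was left, without C8 or L7 1, without C6, L5 or L6 2, and without C7 3.

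Pyruvate entry and the tricarboxylic acid cycle had 29 tested genes, 2 higher and 1 lower. Idh3a (log2 ratio 0.14, adjusted p = 0.0234) and Dlst (log2 ratio 0.13, adjusted p = 0.00391) were higher and the fumarase Fh1 lower (log2 ratio -0.14, adjusted p = 0.0485). Without C7, C8, L6 or L8, Idh3a lost its call, and of the fits without a single library, those without C6 and without L5 kept the call of Fh1. Of the 4 tested genes of the glucose-sensing MondoA group, both arrestin-domain genes that MondoA is known to switch on with intracellular glucose phosphate were lower. Txnip, which lowers glucose uptake by taking GLUT1 off the cell surface, stood at 292, 297, 294 and 279 CPM in C5 to C8 and at 167, 165, 176 and 174 CPM in L5 to L8. The groups lay far apart (log2 ratio -0.77, SE 0.0339, adjusted p = 2.19e-11). Arrdc4, its closest relative, stood at 19.8, 18.4, 18.9 and 19.0 CPM without and 12.9, 11.98, 10.8 and 13.2 CPM with irradiation. Again no library of 1 group reached the other (log2 ratio -0.64, SE 0.0849, adjusted p = 2.24e-05). Slc2a1, whose product Txnip acts on, was higher while Txnip was lower in the same 4 libraries. Protein was not measured, and a link between these RNA changes was not tested.

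**Figure D5:**
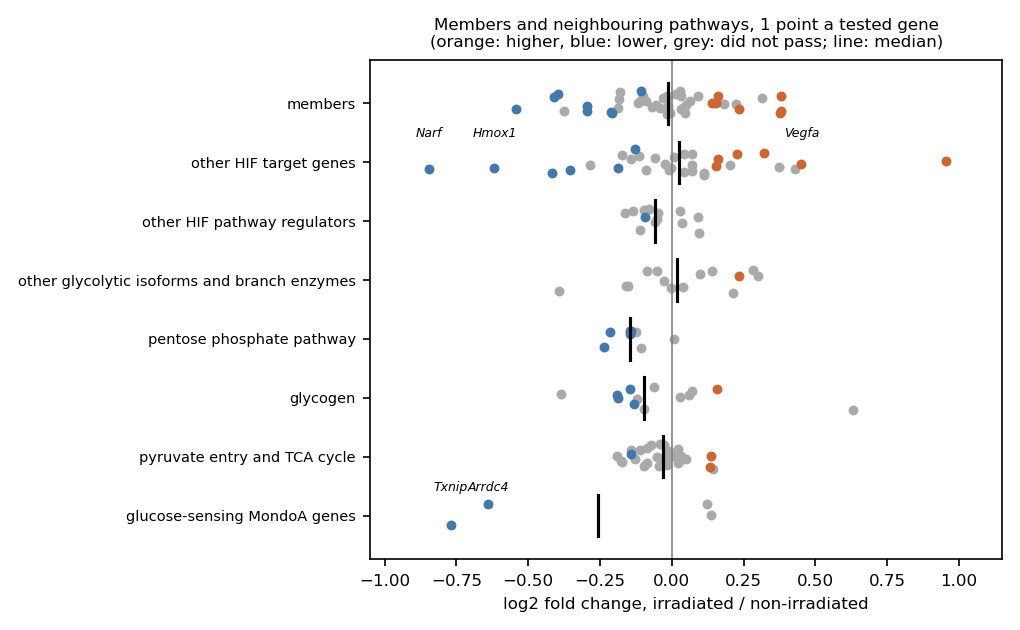
Log2 ratio of irradiated to non-irradiated levels for the 44 tested genes of the group and for 7 neighbouring pathway lists, 1 point a gene, with a black line at each median. The pentose phosphate points lie mostly below 0, other HIF targets spread to both sides, and Txnip and Arrdc4 lie far to the left.

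Some counts can include reads of neighbouring genes, since the strand setting of the counting is not given in the sources used here. In the GENCODE M21 annotation the antisense gene Gm45507 covers 22.3% of the exon length of Bnip3, and opposite-strand genes cover 5.6% for Pfkp (Pitrm1), 5.6% for Hif1a, 6.4% (Gm17035) and 2.1% (Gm2895) for Ndrg1, 3.0% for Slc2a1, 11.5% for Gpi1 and 16.1% for Pdha1 (Map3k15). Genes on the same strand, whose reads no strand setting separates, cover 17.4% for Pfkfb2, 15.3% for Pkm, 10.2% for Pfkm and 2.5% for Hif1a. Overlaps of other members are not listed. The table also holds a second feature with the symbol Aldoa at about 2 CPM, which did not pass (adjusted p = 0.577), and the values above are those of the main Aldoa gene. What these overlaps add to the values was not tested.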

How the data were processed

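Poly(A) RNA-seq of MLO-Y4 cells gave 1 table of estimated counts per Ensembl gene, deposited by the authors as whole numbers and not normalized. Per the submitters' processing notes reads were handled with HISAT2 2.2.1 and StringTie 2.1.7 on build GRCm39, with Trimmomatic 0.39, DESeq2 1.32.0 and FastQC 0.11.9 also named. The table's columns name the group and a number from 5 to 8, while sample titles number 1 to 4, so columns were tied to groups only. Totals of 43786209 to 51734166 counts limit precision by counting error only. Symbols, transcript lengths (longest principal transcript) and overlaps came from GENCODE M21 on GRCm38, used for names and lengths only (52083 identifiers matched).

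Features passing edgeR's filterByExpr (minimum count 10) were scaled by TMM and tested in all 8 libraries with edgeR 4.0.16 (R 4.3.3) by its robust quasi-likelihood test, group as the only term, with Benjamini-Hochberg adjustment over 15164 features and a threshold of 0.05. The procedure was tested on simulated data. Alternatives were DESeq2 1.42.0, limma-voom (limma 3.58.1), 3 other scalings, other filters, counts divided by 4, a block by column number and leaving out libraries. Copies were found by alignment (95% identity over 200 bases), since many carry no suffix of the member's symbol. The members, lists and tests were chosen with earlier results of these data known. Called members are given by library and the other members by mean and SD or their test, and of each neighbouring list up to 3 called genes with the largest change are named, except 1 that is not reported here.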

Additional observations from a re-analysis of the deposited data

Results flagged for a closer look

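In 5 of 120 sets of 4 libraries checked, a single library lay farther from the other 3 than Dixon's test at the 95% level allows for 4 values. Chance alone would give about 1 in 20. Among the irradiated libraries, Ndrg1 was at 37.9 CPM in L6, with the nearest other at 31.2 CPM, and L6 was still below all controls. Pfkfb3 was at 3.99 CPM in L5, with the nearest at 3.25 CPM. Pkm was at 3273 CPM in L5, below the nearest at 3392 CPM. Gapdh was at 78.2 CPM in L7, with the nearest at 82.1 CPM, and Pgk1 was at 655 CPM in L7, with the nearest at 641 CPM. Of these genes only Ndrg1 passed the test, and it kept its call in all 19 alternatives. The causes were not tested.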

How the results depend on the processing

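No called value changed sign under the 19 alternatives, of which adding copies and leaving out both L5 and L7 were chosen after seeing the data. Of the 15 called genes of the group 8 kept their call throughout, and of the 29 uncalled tested genes 24 stayed uncalled. With 1 library left out, higher and lower genes of the group ranged from 5 to 8 and 7 to 8, and all features from 976 to 1501 higher and 696 to 1172 lower. Without L5 and L7 these were 4 and 5, and 618 and 405 against 1247 and 1023, with fewer libraries in the fit. With library totals in place of TMM, 1050 features were higher and 1345 lower, the group had 6 higher and 11 lower (Pgam1 at 0.036, Pdha1 at 0.0285 and P4ha1 at 0.0227 as adjusted p), and its median log2 ratio moved from -0.0145 to -0.0375, while that of all features was -0.0293. P4ha1 was also called with upper-quartile scaling (0.0415). The group's median ranged from -0.0162 to 0.0186 with 1 library left out, so its sign is not settled.

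The MondoA list and the further glycolytic isoforms kept their counts in all 19 alternatives. Other HIF regulators, with 1 lower, had 2 with DESeq2, upper-quartile scaling or library totals, 0 with DESeq2's size factors, a filter of 1 count, the block or without L5 and L7, and 0 to 2 without single libraries. The tricarboxylic acid list, with 2 higher and 1 lower, had 1 higher with library totals or the block, 0 lower with DESeq2's size factors, a filter of 1 count or of 1 CPM, counts divided by 4, the block or without L5 and L7, and 1 to 2 higher and 0 to 2 lower without single libraries. Lower glycogen genes were 2 with the block, 0 without L5 and L7 and 0 to 3 without single libraries, and lower pentose phosphate genes 1 without L5 and L7 and 2 to 6 without single libraries. The cause was not tested.

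Column numbers gave no sign of pairing: deviations of same-numbered libraries correlated at -0.0459 to 0.00144, and 0 of 4 libraries correlated best with their own number. With a replicate block by number, 6 genes of the group were higher and 8 lower, and 1006 and 751 of all features. Genes under about 1 CPM, such as Aldoc and Ankrd37, are limited by depth, and their intervals reach beyond a ratio of 2.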
